A study of Mus musculus with 6 samples.

Results

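The mouse autosomes held 398 narrow gaps between lamina-associated domains (LADs), the stretches of chromatin that touch the nuclear lamina. A gap was a stretch of at least 25 kb and under 100 kb on chromosomes 1 to 19 that lay in no LAD of any of 3 deposited LAD lists and held 20 or more GATC fragments, the units of measurement. Of 1543 autosomal stretches in no LAD, 25.8% met this rule. Another 700 stretches measured 100 to under 500 kb, 414 measured 500 kb or more, 30 were under 25 kb, and 1 of 50000 bp held no fragment. The narrow gaps summed to 23.2 Mb, which is 0.960% of the autosomes and 3.13% of the sequence in no LAD.

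The cells were MEFs (mouse embryonic fibroblasts, which make connective tissue), C57BL/6 and labelled wild type, and their lamina contacts were mapped by DamID. In DamID a bacterial adenine methyltransferase (Dam) fused to a lamin marks GATC sites near the lamina, and cells with Dam alone give the background. All cells carried a lentiviral shRNA, were selected with puromycin and then received a lentivirus for Dam alone or a Dam fusion. There were 6 libraries in 3 maps: LmnA RNAi and LmnC RNAi, each with Dam-LmnB1 over Dam-only, and LmnB1 RNAi, with Dam-LmnA over Dam-only.

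The maps hold 1 library per group, so no test across replicates was possible, and differences are between these libraries. The LmnB1 RNAi map differs from the others in both the targeted lamin and the fusion, and these cannot be told apart. Only LmnA and LmnC appear as shRNA targets in the treatment protocol, and Dam-LmnB1 is the only fusion named there. That the third map has LmnB1 as its target comes from titles and description labels, and that it has Dam-LmnA as its fusion from a sample title. RNA and protein were not measured, so neither the depletion nor the cell type could be checked here. A map of cells with a control shRNA was not analysed here.

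The lamina is a mesh of lamin filaments under the inner nuclear membrane. The Lmna gene gives lamins A and C by splicing, and Lmnb1 gives lamin B1. LADs are mostly gene-poor and weakly transcribed, while sequence between them tends to hold active genes and stay in the nuclear interior. Short interruptions of LADs are known to coincide at times with active promoters, but genes in these gaps were not analysed here, because no annotation of the mm9 build, in which the coordinates are given, was used.

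Each value below is a length-weighted mean of the deposited log2 ratio of fusion to Dam-only reads over the fragments of a region. Equal reads in both libraries give a constant of the map, -0.34 (LmnA RNAi), 0.21 (LmnC RNAi) or -0.15 (LmnB1 RNAi), and lower values mean fewer fusion reads. The flanks of a gap are the 100 kb on either side, pooled. The gaps were chosen by LAD lists that the authors called from this signal, so a gap below its flanks is what the rule selected. Levels in gaps and flanks are therefore described and not tested.

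Gaps had a median width of 55.8 kb (interquartile range 39.7 to 76.6 kb) and held 46 to 269 fragments each, with a median of 127.5. The 3 narrowest members measured 25.1, 25.2 and 25.3 kb, and the nearest stretches left out on that side 24.9, 23.9 and 23.0 kb. The widest members measured 98.4, 99.0 and 99.7 kb, and the next wider stretches 100.2, 100.4 and 100.5 kb. Neither width limit fell at a break in the widths.

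The narrowest, at chr15:39593856-39619003 with 50 fragments, had -2.82 ± 0.67, -2.36 ± 0.33 and -2.58 ± 0.39 with LmnA, LmnC and LmnB1 RNAi (standard error over fragments), against 0.59, -0.36 and 0.16 in its flanks. The next, at chr1:122481933-122507162, had -3.71, -4.96 and -2.82, against 0.58, 0.50 and 0.35. At chr3:57960909-57986208 the gap had -3.73, -3.90 and -3.48, against 0.04, -1.42 and -0.25. All 3 were well below their flanks in each map. The LmnC RNAi flanks of the chromosome 15 and chromosome 3 gaps were below 0, as were the LmnB1 RNAi flanks of the chromosome 3 gap. The widest, at chr12:50975758-51075471 with 197 fragments, was shallow, with -0.26 ± 0.38, -1.46 ± 0.39 and -0.84 ± 0.30, against 1.85, 0.60 and 1.25 in its flanks. At chr13:58212507-58311541 the gap had -2.62, -3.74 and -2.63, against 0.45, 0.09 and 0.29. At chr9:107164884-107263255 it had -2.86, -2.50 and -1.92, against 1.38, 1.19 and 0.63. This last gap and the narrowest, on chromosome 15, were lowest in the LmnA RNAi map, an uncommon order. At the chromosome 15 gap, LmnA RNAi differed from the other maps by less than its standard error. Without fragments read in 1 library only, that gap had -1.51, -1.77 and -1.78, with LmnA RNAi the highest. The chromosome 9 gap then had -1.56, -1.26 and -1.15, with LmnA RNAi still the lowest.

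Within the gaps, the median signal was -1.98 in the LmnA RNAi map (range -4.53 to 0.29), against 1.17 in the flanks. In the LmnC RNAi map it was -3.07 (range -5.99 to -0.94), against 0.030 in the flanks. The LmnB1 RNAi map gave -2.34 (range -4.81 to -0.30), against 0.39 in the flanks. Gap means were thus negative in nearly all cases, below 0 in 396 (LmnA RNAi), 398 (LmnC RNAi) and 398 (LmnB1 RNAi) of 398 gaps. The 2 exceptions, picked out after their values were seen, were LmnA RNAi gaps at chr3:141126652-141189279 with 0.13 ± 0.30 and at chr5:50415561-50453117 with 0.29 ± 0.39 (standard error over fragments). Both stood far below their flanks (1.80 and 2.77) in that map.

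The median drop, gap minus flank, was -3.15 with LmnA RNAi, -3.07 with LmnC RNAi and -2.62 with LmnB1 RNAi. Every one of the 398 gaps lay below its flanks in each map, where 48.5%, 48.1% and 48.6% of autosomal 50 kb windows did so. A drop of more than 2 was seen in 359 gaps with LmnA RNAi (90.2%, against 2.94% of windows), in 344 with LmnC RNAi (86.4%, against 3.47%) and in 314 with LmnB1 RNAi (78.9%, against 2.35%). The rule used this contrast, so these shares show how deep the chosen gaps are and nothing more. Depth varied widely all the same. Single gaps differed from their flanks by -6.18 to -0.68 with LmnA RNAi, -6.22 to -0.36 with LmnC RNAi and -5.49 to -0.24 with LmnB1 RNAi. In 286 gaps the drop passed 2 in every map, a count for which no share of windows was computed.

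**Figure D1:**
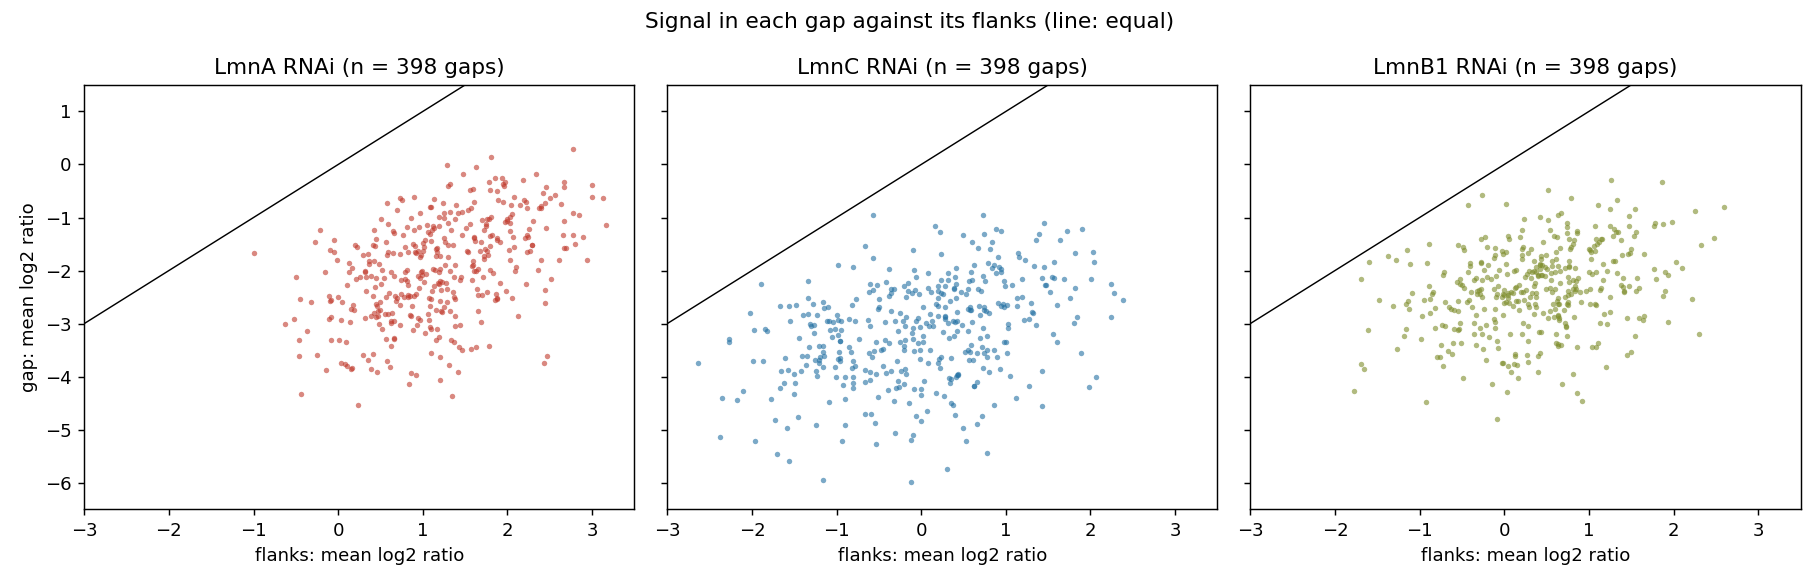
Mean log2 ratio of each gap (vertical axis) against that of its 100 kb flanks (horizontal axis) for 398 gaps in each map, with a line where both are equal. All points lie below the line, and flanks reach lower values with LmnC RNAi and LmnB1 RNAi than with LmnA RNAi.

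Much of the size of a drop came from fragments with reads in 1 library only, whose log2 values lie beyond 12 in either direction. In gaps, 6.15% of fragments were read in the fusion library alone and 16.2% in the Dam-only library alone with LmnA RNAi. The same shares were 3.28% and 23.9% with LmnC RNAi, and 4.38% and 20.6% with LmnB1 RNAi. In flanks the balance turned: 18.5% fusion-only and 5.57% Dam-only with LmnA RNAi, 13.0% and 9.74% with LmnC RNAi, and 14.1% and 8.62% with LmnB1 RNAi. In reads, the single-library fragments of gaps held 5413 fusion and 29610 Dam-only reads with LmnA RNAi, 2431 and 67815 with LmnC RNAi, and 3501 and 45667 with LmnB1 RNAi. With these fragments left out, the median drop was -1.56 with LmnA RNAi, -1.50 with LmnC RNAi and -1.28 with LmnB1 RNAi, and each of the 398 gaps still lay below its flanks in each map. Drops of more than 2 were then seen in 69, 75 and 33 gaps, and the share of windows was not computed for this setting.

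Whether the gaps lay inside LAD territory depended on the map: most did in the LmnA RNAi map, and fewer in the others. For each gap and map, the distance between the LADs of that map that enclose it was measured, up to the chromosome end where no LAD followed. Its median was 71.8 kb with LmnA RNAi (interquartile range 47.0 to 99.6 kb), 146 kb with LmnC RNAi (82.8 to 483 kb) and 157 kb with LmnB1 RNAi (79.0 to 610 kb). The enclosing interval was under 100 kb for 300 gaps (75.4%) with LmnA RNAi, 147 (36.9%) with LmnC RNAi and 135 (33.9%) with LmnB1 RNAi. It reached 500 kb or more for 15 (3.77%), 95 (23.9%) and 111 (27.9%) gaps in that order of maps, and its longest values were 2419, 6502 and 5499 kb. The LmnA RNAi list also covers more of the autosomes, 67.1% against 58.0% and 58.1%.

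**Figure D2:**
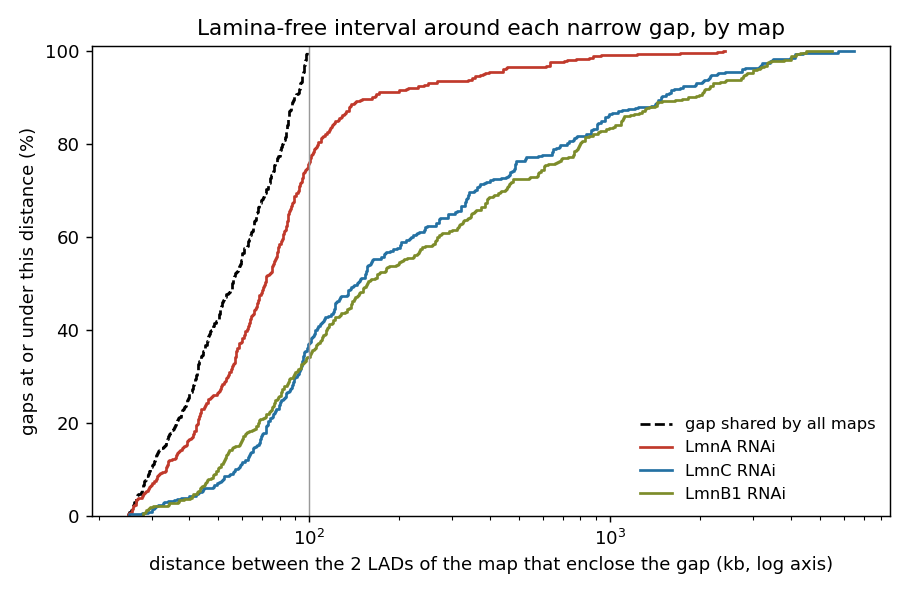
Share of the 398 gaps (vertical axis, %) at or under each distance between the enclosing LADs of a map (horizontal axis, kb, log scale), with the width of the gap shared by all maps as a dashed line and 100 kb as a grey line. The LmnA RNAi curve passes 75.4% at 100 kb, where the LmnC RNAi and LmnB1 RNAi curves stand at 36.9% and 33.9%.

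LAD sequence made up a median of 98.1% of the flanks with LmnA RNAi, 59.3% with LmnC RNAi and 50.03% with LmnB1 RNAi. Both flanks were at least 80% LAD at 291 gaps with LmnA RNAi, 121 with LmnC RNAi and 125 with LmnB1 RNAi, and in every map at 42 gaps. By the maps in which the enclosing interval was under 100 kb, 162 gaps (40.7%) were narrow with LmnA RNAi alone, 31 with LmnC RNAi alone and 26 with LmnB1 RNAi alone. A further 40 were narrow with LmnA and LmnC RNAi, 33 with LmnA and LmnB1 RNAi, and 11 with LmnC and LmnB1 RNAi. In every map 65 gaps (16.3%) were narrow, or 124 at a limit of 150 kb, and 30 (7.54%) were narrow in none, their borders coming from different maps on the left and right. The largest class was thus a break in LADs of the LmnA RNAi map that lay in a wider lamina-free interval of the other maps.

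Of 796 gap edges, 2 were chromosome ends with no LAD beyond them. Of the other 794, 456 were LAD borders of the LmnA RNAi map, 180 of the LmnC RNAi map and 183 of the LmnB1 RNAi map. The counts within 10 kb below include the 2 ends for every map. A border of the LmnA RNAi map lay within 10 kb of 617 edges (77.5%), one of the LmnC RNAi map within 10 kb of 332 (41.7%) and one of the LmnB1 RNAi map within 10 kb of 333 (41.8%). All maps had a border within 10 kb of the same edge at 131 edges (16.5%). At 3 edges all maps ended at the same base, and these are named because the count is small. The left edge of chr2:163154460-163249196 was a LAD border in every map. The right edges of chr4:155554173-155630052 and chr13:120194174-120281880 were the chromosome ends, where agreement is given by construction.

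The signal also stepped down at edges with no LAD border of the map itself within 10 kb. At 464 such edges, the 10 kb inside the gap lay below the 10 kb outside by a median of -1.65 with LmnC RNAi. At 463 edges it did so by -1.53 with LmnB1 RNAi, and at 179 by -1.29 with LmnA RNAi. The 10 kb inside were the lower side at 85.8% (LmnC RNAi), 84.4% (LmnB1 RNAi) and 82.1% (LmnA RNAi) of these edges. Over pairs of neighbouring 10 kb at the starts of 50 kb windows, with no LAD of the map in either, the right one was lower in 50.4%, 49.6% and 50.4% of cases. The rule keeps the inside out of all LADs and the outside in a LAD of another map, which favours this direction.

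Averaged over all gaps, the signal approached the edge gradually from the LAD side and then fell sharply. In the LmnA RNAi map it was 1.64 at 95 to 100 kb left of the gap, 0.44 in the last 5 kb before the left edge and -1.96 in the first of 10 equal parts of the gap. The LmnC RNAi map had 0.41, -1.07 and -3.06 at these positions, and the LmnB1 RNAi map 0.78, -0.55 and -2.20. Inside the gaps the profile was uneven, and only some of its 10 parts are given here, without errors. The sixth part (-1.64, -2.98 and -2.11 with LmnA, LmnC and LmnB1 RNAi) was less negative than the last part (-2.48, -3.49 and -2.69). It was close to the first part with LmnC and LmnB1 RNAi. The first and last parts also differed in each map, although left and right are arbitrary.

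**Figure D3:**
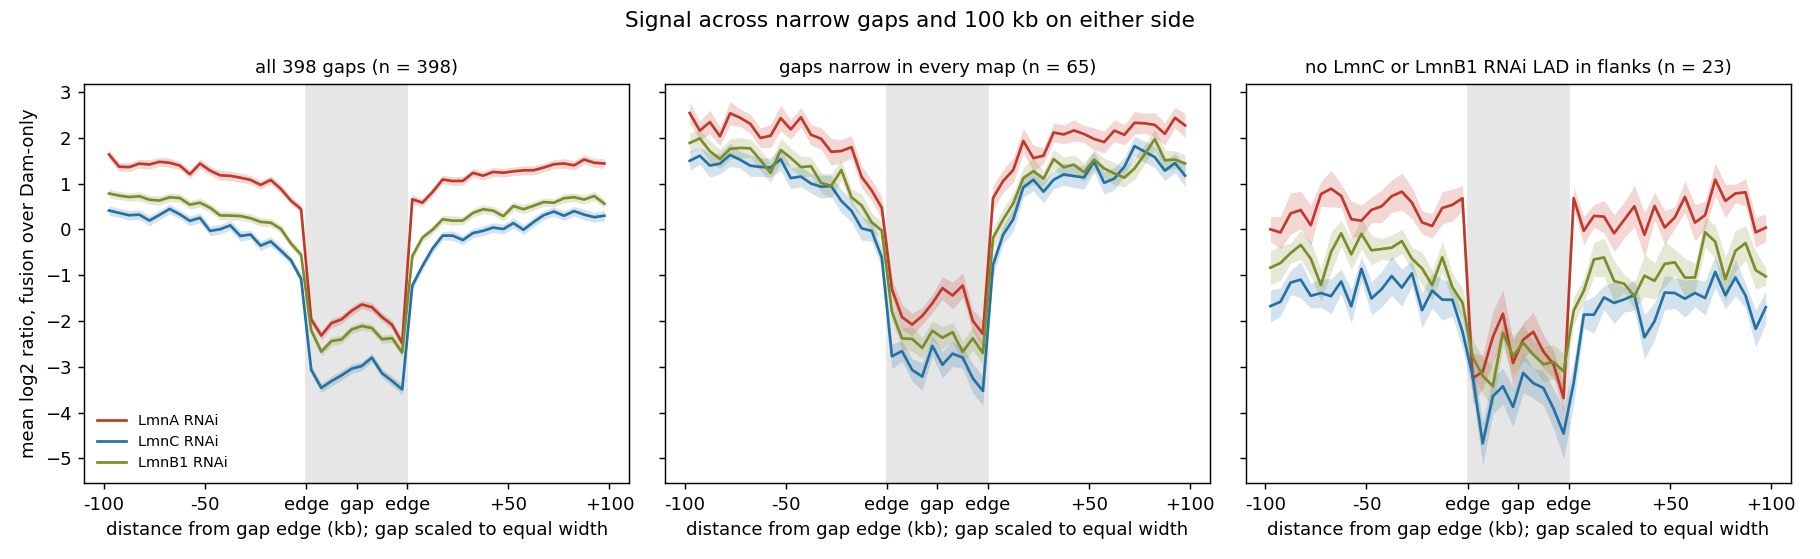
Mean log2 ratio (vertical axis) across the gaps, each scaled to equal width (grey), and in 5 kb bins over 100 kb on either side, for all 398 gaps, the 65 narrow in every map and the 23 with no LmnC RNAi or LmnB1 RNAi LAD in their flanks; bands are the standard error over gaps. The signal drops inside the gap in each panel and map, and in the right panel the LmnC RNAi and LmnB1 RNAi flanks are already below 0.

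The 65 gaps narrow in every map had the largest median drops and the highest flanks of the classes by number of maps. Their median gap signal was -1.57, -2.88 and -2.38 with LmnA, LmnC and LmnB1 RNAi, against 1.95, 0.94 and 1.25 in their flanks. Median drops were -3.61, -3.96 and -3.66. The 219 gaps narrow in a single map had drops of -3.02, -2.69 and -2.41, and the 84 narrow in 2 maps had -3.16, -3.42 and -2.80. In the gaps themselves the classes differed less than in the flanks, since the single-map class stood at -2.10, -3.14 and -2.34, against 0.93, -0.43 and 0.09 in its flanks. The classes were formed from LADs called from this signal. High flanks and large drops in the first class, and flanks that differ more than gaps, thus carry part of the rule and are a description.

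At 47 gaps the LmnC RNAi map had no LAD in either flank, and 42 of them had both flanks at least 80% in LADs of the LmnA RNAi map. The LmnC RNAi signal was already low around them, with a median of -3.44 in the gaps, against -1.33 in the flanks. All 47 gaps lay below their flanks in the LmnC RNAi map, with drops of -3.75 to -0.36 and a median of -2.20. By more than 0.5 this held for 45 of them (95.7%), where 29.5% of 50 kb windows with no LmnC RNAi LAD in or beside them fell that far. Without single-library fragments the median drop was -1.16, and all 47 stayed lower. The enclosing interval between LmnC RNAi LADs had a median of 1536 kb here, so these gaps lay inside long stretches that the LmnC RNAi list leaves free of LADs, and 45 of the 47 were below each side on its own.

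The LmnB1 RNAi map had no LAD in the flanks of 41 gaps, 34 of which had both flanks at least 80% in LmnA RNAi LADs. Its median was -2.57 in the gaps, against -0.73 in the flanks. All 41 were lower, by a median of -1.93, and 37 (90.2%) by more than 0.5, where 27.2% of windows clear of LmnB1 RNAi LADs fell that far. At the 23 gaps with neither a LmnC RNAi nor a LmnB1 RNAi LAD in the flanks, the drops were -3.18, -2.27 and -2.22 with LmnA, LmnC and LmnB1 RNAi. Since the other maps also had to be free of LADs in the gap, these shares carry part of the rule and are a description.

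The reverse case was rare. Only 3 gaps had no LmnA RNAi LAD in their flanks, at chr7:51716424-51812576, chr16:84673624-84738903 and chr19:45286023-45316525, singled out after their values were seen. LADs of the LmnC RNAi map filled both flanks of all 3. Their drops were -0.68, -1.60 and -1.78 with LmnA RNAi and -2.96, -3.04 and -3.22 with LmnC RNAi. With LmnB1 RNAi they were -1.62, -1.66 and -1.14.

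The narrow gaps, with medians of -1.98, -3.07 and -2.34 with LmnA, LmnC and LmnB1 RNAi, were about as low as wider lamina-free sequence. Stretches of 100 to under 500 kb had medians of -1.75, -3.05 and -2.12, and stretches of 500 kb or more had -2.08, -3.18 and -2.20. In each map the narrow gaps differed from both by less than their own interquartile range. Without single-library fragments the narrow gaps stood at -1.23, -1.62 and -1.26, the middle class at -1.19, -1.53 and -1.15 and the widest at -1.32, -1.53 and -1.15. Narrow gaps varied more, with interquartile ranges of -2.61 to -1.25, -3.83 to -2.44 and -2.83 to -1.82. For stretches of 500 kb or more these were -2.56 to -1.69, -3.47 to -2.86 and -2.43 to -1.93. Narrow gaps also hold fewer fragments each, and the part of this in the spread was not tested.

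**Figure D4:**
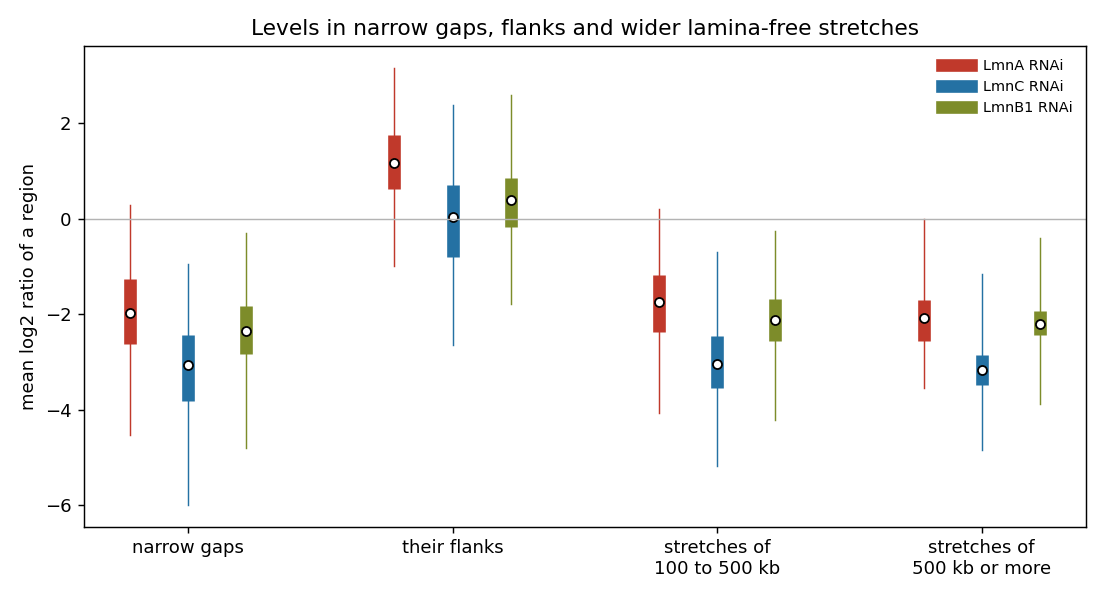
Mean log2 ratio of a region (vertical axis) for narrow gaps, their flanks and wider lamina-free stretches in each map; white points are medians, thick bars interquartile ranges and thin lines the full range. Gap medians of -1.98, -3.07 and -2.34 lie beside those of the wider stretches and below the flank medians of 1.17, 0.030 and 0.39.

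Narrower gaps were somewhat lower. The 168 gaps of 25 to under 50 kb had medians of -2.34, -3.35 and -2.49 with LmnA, LmnC and LmnB1 RNAi, the 121 of 50 to under 75 kb had -1.83, -2.99 and -2.20, and the 109 of 75 to under 100 kb had -1.55, -2.87 and -2.16. Across the 398 gaps, width and gap signal correlated with r = 0.30, 0.16 and 0.24 (Spearman 0.31, 0.16 and 0.24). Width and drop correlated with 0.27, 0.04 and 0.14. The LADs that set the width were called from the same signal, so the relation carries part of the rule.

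Gaps that were deep in a map tended to be deep in the others. Between LmnC and LmnB1 RNAi this was about as close as in ordinary sequence, and less close for both pairs with LmnA RNAi. The rule used the drop to choose gaps but not windows, so this comparison carries part of the rule. Over 398 gaps, the drops correlated with r = 0.58 between LmnA and LmnC RNAi, 0.57 between LmnA and LmnB1 RNAi and 0.72 between LmnC and LmnB1 RNAi. Without single-library fragments r was 0.79, 0.77 and 0.90. For 50 kb windows minus their flanks it was 0.74, 0.70 and 0.75, and 0.88, 0.84 and 0.89 without those fragments. The flanks of the gaps alone correlated with 0.78, 0.78 and 0.89, and each drop contains them. The points share fragments and their base composition within a map, though no library is shared between maps. Within a map, means over odd and even fragments of a gap correlated with r = 0.69, 0.69 and 0.59, and from the odd and even means the mean of a gap has an error of about 0.41 on average in each map. Standard errors of single gaps over their fragments ran between 0.19 and 1.02 with LmnA RNAi, 0.23 and 1.19 with LmnC RNAi, and 0.22 and 0.90 with LmnB1 RNAi.

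Between maps, LmnC RNAi gave the lowest signal at 331 gaps (83.2%, against 69.7% of 50 kb windows), LmnB1 RNAi at 45 (11.3%, against 23.2%) and LmnA RNAi at 22 (5.53%, against 7.11%). The LmnC RNAi map was thus the lowest over most sequence. LmnA RNAi minus LmnC RNAi, which share a fusion, had a median of 1.18 in gaps (SD 0.80 over gaps, range -1.19 to 3.83). It was over 0.5 at 326 gaps (81.9%), against 72.0% of 50 kb windows, and the flanks had the same median of 1.18. Wider lamina-free stretches passed 0.5 more often, at 90.3% (100 to under 500 kb) and 93.5% (500 kb or more). Without single-library fragments the gap median was 0.39, and 152 gaps (38.2%) were over 0.5, against 24.7% of windows. Wider stretches were then over 0.5 at 28.7% (100 to under 500 kb) and 9.42% (500 kb or more). The whole maps differ by 1.15 (medians of 100 kb bins 1.21 and 0.06), and after each map was centred on its own median the difference in gaps was 0.034. Centred, it was over 0.5 at 26.9% of gaps and under -0.5 at 24.9%, against 19.5% and 34.9% of windows. Relative to its map, the median gap was thus about as low with LmnA RNAi as with LmnC RNAi.

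LmnA RNAi minus LmnB1 RNAi had a median of 0.40 in gaps and was over 0.5 at 182 of them (45.7%), against 48.5% of windows. In the flanks the median was 0.80. Without single-library fragments the gap median was 0.053, against 0.30 in the flanks. Centred on each map, where the maps differ by 0.68, the sign turned and the gap median was -0.28, near the -0.21 of all windows, where stretches of 100 to under 500 kb had -0.35 and those of 500 kb or more -0.62. LmnC RNAi minus LmnB1 RNAi had a median of -0.85 in gaps, against -0.37 in flanks, and it was below 0 at 348 gaps (87.4%), against 74.8% of windows. Wider lamina-free stretches were below 0 more often, at 97.9% (100 to under 500 kb) and 100% (500 kb or more). Without single-library fragments its gap median was -0.36. Centred, it remained negative at -0.38, with the maps -0.47 apart. Centred medians were -0.032 in windows, -0.41 in stretches of 100 to under 500 kb and -0.51 in those of 500 kb or more.

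The drop itself does not depend on a constant added to a map. It was deeper with LmnA RNAi than with LmnB1 RNAi at 271 gaps (68.1%, against 49.9% of windows), with a median difference of -0.39. It was deeper with LmnC RNAi than with LmnB1 RNAi at 288 (72.4%, against 49.3%), with -0.42. LmnA RNAi was deeper than LmnC RNAi at 202 gaps (50.8%, against 50.6%), with -0.025. Without single-library fragments these counts were 318, 343 and 219, with no share of windows computed. The maps also differ in range: the SD of 50 kb windows was 2.14, 2.30 and 1.96 with LmnA, LmnC and LmnB1 RNAi. With each drop divided by this SD, the medians were -1.47, -1.33 and -1.34. LmnA RNAi was then deeper than LmnB1 RNAi at 235 gaps, LmnC RNAi deeper than LmnB1 RNAi at 194 and LmnA RNAi deeper than LmnC RNAi at 245. For these scaled counts too, no share of windows was computed, so they are not read as a result about the gaps. The order of the LmnC RNAi and LmnB1 RNAi medians therefore depends on this scaling. The rule used the drop and took most edges from LmnA RNAi LADs, so the counts set against windows carry part of the rule. In the 42 gaps with LAD flanks in every map, median unscaled drops were -3.60, -4.15 and -3.69 with LmnA, LmnC and LmnB1 RNAi. The 65 gaps narrow in every map had -3.61, -3.96 and -3.66. In both sets LmnA RNAi had the smallest median drop.

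The following gaps were named by a rule: among the 42 with at least 80% of both flanks in LADs of every map, the 5 with the largest and the 3 with the smallest drop averaged over maps. The deepest was chr3:16081952-16130156, of 48.2 kb. It had -2.17 ± 0.98, -4.01 ± 0.40 and -3.19 ± 0.41 with LmnA, LmnC and LmnB1 RNAi (standard error over its 110 fragments), against 2.52, 2.07 and 2.30 in its flanks. Its wide error with LmnA RNAi shows in the 10 kb bins, one of which stood at 2.13 just right of the centre. Without single-library fragments the gap had -1.40, -2.66 and -1.99, against 0.94, 0.86 and 0.71 in its flanks.

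Next came chr1:34862933-34917483, of 54.6 kb, with -3.43 ± 0.43, -4.40 ± 0.53 and -3.44 ± 0.40 with LmnA, LmnC and LmnB1 RNAi, against 1.63, 1.13 and 1.04 in its flanks. A second gap on chromosome 3, chr3:15196146-15232378, of 36.2 kb, had -3.60, -3.99 and -2.50, against 2.47, 1.05 and 0.72. Its left border and that of the deepest gap lie under 1 Mb apart. At chr6:106717764-106760072, of 42.3 kb, the gap had -1.32, -2.88 and -2.54, against 2.77, 2.24 and 2.22 in its flanks. The fifth, chr18:42671739-42753049, of 81.3 kb, had -1.79, -3.34 and -2.94, against 2.39, 1.61 and 1.64. The chromosome 6 gap was above the median gap level with LmnA and LmnC RNAi, and its flanks were above the median flank level in each map.

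The shallowest of the 42 was chr6:97764223-97848120, of 83.9 kb, with -1.55 ± 0.28, -2.36 ± 0.35 and -2.14 ± 0.29 with LmnA, LmnC and LmnB1 RNAi, against 1.01, -0.07 and 0.32 in its flanks. At chr9:52312964-52348698, of 35.7 kb, the gap had -0.77, -2.74 and -1.41, against 1.39, 0.57 and 1.15. At chr6:103268700-103355983, of 87.3 kb, it had -0.29, -1.93 and -0.33, against 2.18, 1.45 and 1.86. Even these dropped by more than 2 in every map.

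The largest LmnA RNAi minus LmnC RNAi difference was 3.83, at chr6:85881009-85923646, with -2.16 ± 0.42 with LmnA RNAi and -5.99 ± 1.19 with LmnC RNAi. Without single-library fragments it shrank to 0.25. The next were chr10:87321228-87348931, with -1.64 and -5.06, and chr2:78381230-78427941, with -0.32 and -3.67. Their differences of 3.41 and 3.35 were 1.21 and 0.78 without those fragments. The largest differences therefore rest mostly on fragments with reads in a single library.

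At the other end, chr14:23404067-23435323 had -4.53 ± 0.76 with LmnA RNAi and -3.34 ± 0.66 with LmnC RNAi, a difference of -1.19 that was 0.08 without single-library fragments. It lies in an interval of 3415 kb between LmnC RNAi LADs. The gap at chr13:48318317-48363667 had -2.07 with LmnA RNAi and -0.94 with LmnC RNAi, and the one at chr9:99024696-99054750 had -3.94 and -3.23. Their differences of -1.13 and -0.70 became -0.04 and -0.28 without those fragments.

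**Figure D5:**
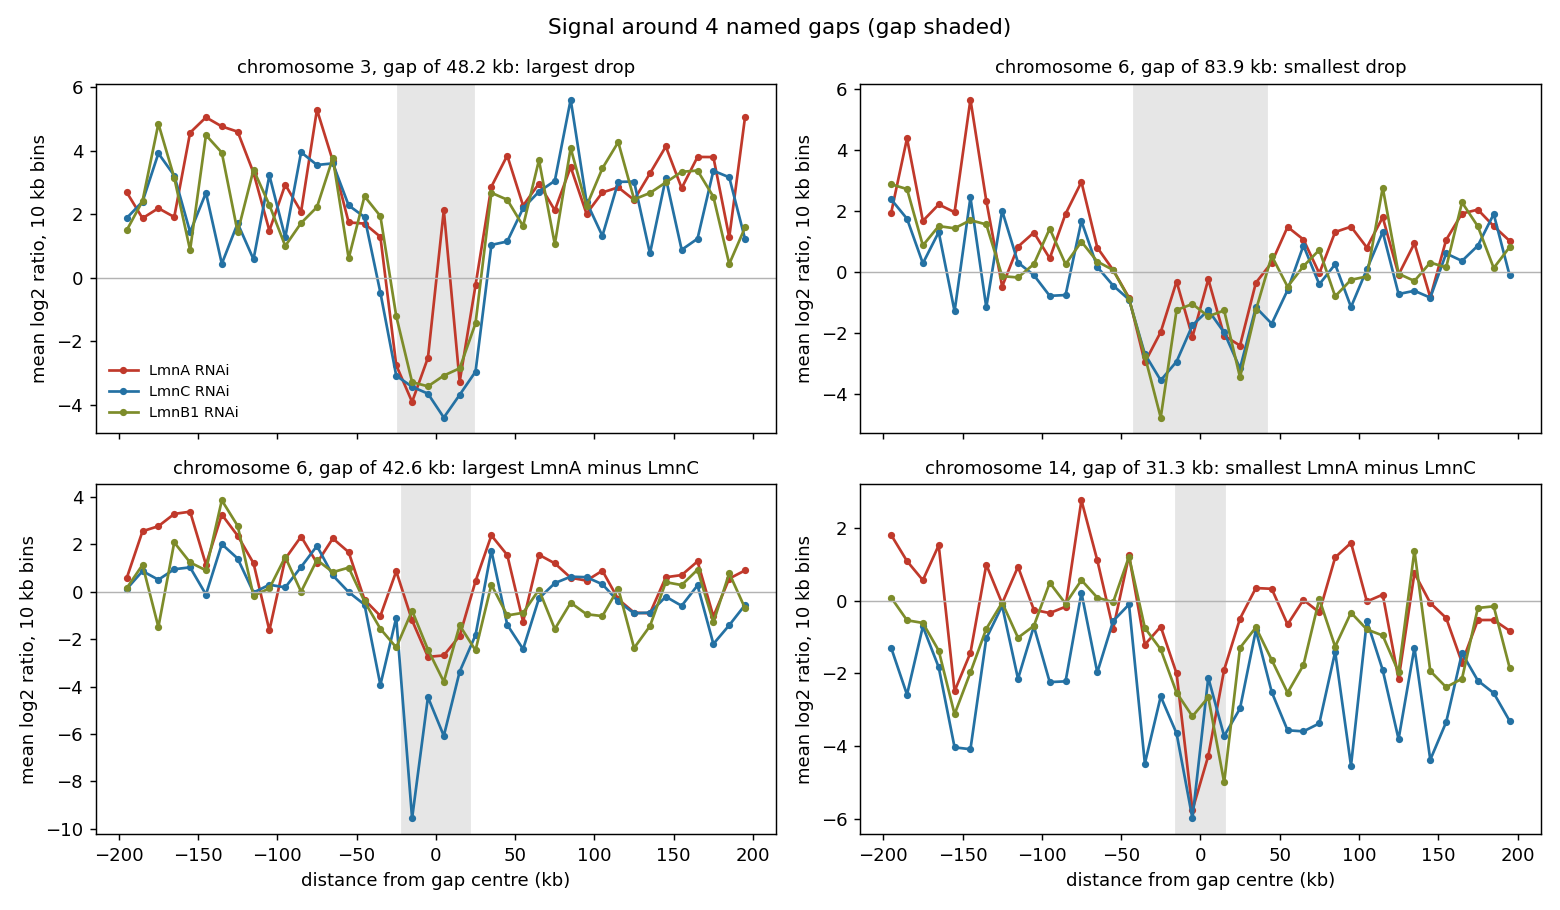
Mean log2 ratio in 10 kb bins (vertical axis) up to 200 kb from the centre (horizontal axis) of 4 named gaps, shaded, in each map: the largest and smallest drop among gaps with LAD flanks in every map, and the largest and smallest LmnA RNAi minus LmnC RNAi difference. Around the chromosome 3 gap all maps are above 0 in most bins on both sides, whereas around the chromosome 14 gap the LmnC RNAi map stays below 0 in nearly all bins.

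Gaps were slightly poorer in GATC fragments than their flanks, a feature that the signal does not enter. Density had a median of 2.30 fragments per kb in gaps (interquartile range 2.12 to 2.49), against 2.49 in flanks, and 109 of 398 gaps were denser than their flanks. Paired, the median difference was -0.20 per kb (interquartile range -0.40 to 0.02). Wider lamina-free stretches had 2.35 (100 to under 500 kb) and 2.40 (500 kb or more), and autosomal 50 kb windows 2.46. The median fragment was 294 bp in gaps and 261 bp in flanks. Over gaps, density and signal correlated only with r = -0.12, -0.07 and -0.14 with LmnA, LmnC and LmnB1 RNAi. Its part in the drop was not tested.

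The lowest 10 kb window within a gap was often at a similar place in different maps, but no more than slightly above what any sequence gave. Among the 119 gaps of 40 to 60 kb, and without single-library fragments, the lowest windows lay within 10 kb of each other at 79.0% of gaps for LmnA and LmnC RNAi, at 78.2% for LmnA and LmnB1 RNAi and at 76.5% for LmnC and LmnB1 RNAi. In autosomal 50 kb windows these shares were 71.6%, 68.8% and 70.2%.

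Narrow gaps were spread over all autosomes. Chromosome 2 held most, with 37, and chromosome 19 fewest, with 12. Per 10 Mb the count ran between 0.983 on chromosome 4 (15 gaps) and 2.39 on chromosome 13 (28 gaps), with a median of 1.68 over 19 chromosomes. With each chromosome cut into 5 equal parts from its start, the parts held 74, 77, 78, 84 and 85 gaps. The drop was seen on all chromosomes, with chromosome medians of -3.55 to -2.79 with LmnA RNAi, -3.80 to -2.51 with LmnC RNAi and -3.40 to -2.09 with LmnB1 RNAi.

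Neighbouring gaps on a chromosome were a median of 3548 kb apart, and 39 of 379 neighbouring pairs (10.3%) lay within 500 kb. The closest pair was 108 kb apart. After the lists were merged, the LAD on either side of a gap had a median length of 562 kb (interquartile range 254 to 1193 kb), close to the 555 kb of all 1540 merged LADs. Both neighbours were 500 kb or longer at 109 gaps. Of the merged LADs, 622 adjoined 1 narrow gap and 86 lay between 2 of them, and those 86 had a median length of 618 kb.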

How the data were processed

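Lamina contacts were measured by DamID in 6 libraries of mouse fibroblasts, 1 Dam-only and 1 fusion library for each of 3 maps. Reads were aligned with Bowtie (version not given) to mm9, per the submitters' processing notes. The ratio step, the filters and the LAD caller were not given in the sources used here. Each GATC fragment has a deposited log2 ratio; its steps fit fusion over Dam-only reads after 1e-05 is added to each, shifted by a constant per map. Values beyond 12 in size were read as 0 reads in 1 library; reads recovered from them came out whole (tolerance 0.02) for 100% of values that stood for at most 100 reads. A value at the constant stands for 0 or equal reads in both. Ratios were deposited, so total reads per library are unknown. The deposited LAD lists give coordinates in bp, printed here 1-based.

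Means weight fragments by length; a fragment belongs to the region that holds its middle. Backgrounds are 47370 autosomal 50 kb windows on a regular grid with at least 80% of window and flanks covered. Standard errors are over fragments of 1 pair of libraries. The members, classes and rules for named gaps were chosen with earlier results of these data known. Computation used Python 3.11.15, numpy 2.4.6 and pandas 2.3.3, and the code was tested on simulated data. Alternatives left out single-library fragments or fragments at the constant, counted each fragment once, and changed width, flank and scale. No p-value was computed, because each group holds 1 library.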

Additional observations from a re-analysis of the deposited data

How the results depend on the processing

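Medians count as moved where they shifted by more than the SD of chromosome medians over 19 chromosomes. Values below are in the order LmnA, LmnC and LmnB1 RNAi. Gap signal was -1.23, -1.62 and -1.26 without single-library fragments, -1.34, -1.77 and -1.37 without those and fragments at the constant, and -2.82, -4.61 and -3.84 with each fragment counted once. It was -1.41 after LmnA RNAi in the 42 gaps with LAD flanks in every map, and -3.19 after LmnA RNAi and -2.87 after LmnB1 RNAi with maps centred. Gap minus flank was -1.56, -1.50 and -1.28, then -1.74, -1.58 and -1.41, then -5.10, -5.15 and -4.72 under the first 3 of these, and -3.60, -4.15 and -3.69 in the 42 gaps. It was -2.91 after LmnA RNAi with 50 kb flanks, and -3.84 after LmnC RNAi (351 gaps) and -3.41 after LmnB1 RNAi (356 gaps) against LAD flank sequence only. Divided by the SD of each map, chosen after seeing the data, it was -1.47, -1.33 and -1.34. LmnA minus LmnC RNAi was 0.39, 0.41 and 1.76 under the first 3 and 0.034 centred. LmnA minus LmnB1 RNAi was 0.053, 0.054 and 1.03, 0.72 in the 42 gaps, and -0.28 centred, which reversed it. LmnC minus LmnB1 RNAi was -0.36 and -0.38 under the first 2 and -0.38 centred. Drops over 2 without single-library fragments, also added after seeing the data, numbered 69, 75 and 33, with no share of windows computed. Gaps of at least 50 kb numbered 230, and 124 were narrow in every map at a limit of 150 kb. Single-map LAD lists gave 488 (LmnA RNAi), 453 (LmnC RNAi) and 346 (LmnB1 RNAi) narrow gaps, within the 1.5 times allowed for counts. A second count of gaps of 25 to 100 kb in each list gave 487, 452 and 409, so the LmnB1 RNAi count is uncertain. With the single-map counts, 29 values stayed within the limits. The median of gap minus flank was negative in each map under every alternative run. No paired analysis was possible because each group holds 1 library. The mean of a gap has an average error of about 0.41, and the cause of the shifts was not tested.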
